A study of Rattus norvegicus with 19 samples.

Results

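Collagens, laminins, nidogens, fibronectin and fibulins are the structural proteins of the extracellular matrix, and their transcripts were followed here in rat cortex exposed to a bile salt, to albumin or to TGF-β1. Members were the genes whose symbol on the array is that of a collagen chain (Col, a number, a, a number), a laminin chain (Lama, Lamb or Lamc with a number), Nid1, Nid2, Fn1 or a fibulin (Fbln with a number). This rule used no measured value and found 57 of the 14217 genes on the array, namely 41 collagen chains, 10 laminin chains, 2 nidogens, fibronectin and 3 fibulins. Of these, 19 had more than 1 probe set, and the one with the largest average signal on the 19 arrays was used. Values are log2 signals, so a difference of 1 is a 2-fold difference. A gene was tested in a set of arrays where its log2 signal was above 4 on at least 2 arrays of that set. This held for 32 members in set 1 and 30 in set 2, with 29 tested in both and 24 in neither.

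The animals were adult male Wistar rats, and the somatosensory cortex was perfused with artificial cerebrospinal fluid that carried the agent. Set 1 held 1 array per condition: the bile salt deoxycholate (DOC, 2 mM), used to open the blood-brain barrier, at 7, 24 and 48 h, bovine serum albumin (0.1 mM) and TGF-β1 (10 ng/ml) each at 8, 24 and 48 h, and a sham-operated animal at 24 h. In set 2, all at 24 h, 3 arrays came from cortex given albumin, 4 from cortex given albumin with blockers of the TGF-β receptors (SB431542, a kinase inhibitor that acts on the type 1 receptor, at 100 µM, and a type 2 receptor antibody at 50 µg/ml) and 2 from sham-operated animals. The series is concerned with epilepsy that develops once the barrier has opened, and with the parts of albumin and TGF-β1 in it.

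Basement membranes are thin sheets built from a network of type IV collagen and a network of laminin trimers, which nidogens and perlecan link to each other. In the brain they ensheath the vessels and lie under the glial end-feet at the pial surface, and they are made mainly by endothelial cells, pericytes, astrocytes and cells of the meninges. Fibrillar collagens of types I, III and V form the fibres of connective tissue and are scarce in the cortex itself, where the meninges and the walls of larger vessels hold most of them. Fibronectin circulates in plasma and is also made in tissue after injury, and fibulins bind basement membranes and elastic fibres. TGF-β is known as an inducer of many of these genes in fibroblasts.

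The promoters of a pair of genes with the largest rise in their class, and of a fibrillar collagen that differed in the other direction, are shown because the first pair share their start region. Windows of 300 bases, 250 before and 50 from the first base of the gene onward, were taken from RefSeq (build GRCr8) and were at hand for 44 members and not for 13. The sequences run 5′ to 3′ along each gene, and capitals mark, on either strand, the motif CCAAT, the GC box with letters GGGCGG, the SMAD-type motif with letters CAGAC, or the TATA box with letters TATAAA.
Col4a1 (chr16:84885347-84885646, plus strand): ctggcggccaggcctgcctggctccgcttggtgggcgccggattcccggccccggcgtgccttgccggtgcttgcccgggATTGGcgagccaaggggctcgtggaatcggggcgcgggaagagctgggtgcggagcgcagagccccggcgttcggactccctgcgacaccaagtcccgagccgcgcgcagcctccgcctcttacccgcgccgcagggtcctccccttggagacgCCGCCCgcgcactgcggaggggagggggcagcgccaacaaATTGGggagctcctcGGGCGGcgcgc
Col4a2 (chr16:84885471-84885770, minus strand): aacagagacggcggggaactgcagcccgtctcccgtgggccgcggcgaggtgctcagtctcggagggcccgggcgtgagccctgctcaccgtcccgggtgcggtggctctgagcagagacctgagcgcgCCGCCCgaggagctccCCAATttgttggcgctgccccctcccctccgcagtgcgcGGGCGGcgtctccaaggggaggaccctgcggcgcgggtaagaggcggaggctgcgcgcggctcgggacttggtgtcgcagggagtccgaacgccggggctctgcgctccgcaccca
Col1a2 (chr4:33518307-33518606, plus strand): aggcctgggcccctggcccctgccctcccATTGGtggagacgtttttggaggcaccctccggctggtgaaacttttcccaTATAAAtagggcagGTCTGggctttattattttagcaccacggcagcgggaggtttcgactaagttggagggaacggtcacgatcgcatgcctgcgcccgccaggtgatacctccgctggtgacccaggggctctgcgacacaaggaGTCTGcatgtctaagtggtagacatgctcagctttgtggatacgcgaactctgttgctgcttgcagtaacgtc
Col4a1 and Col4a2, which encode the chains that assemble into the main type IV collagen trimer, run in opposite directions from first bases 77 bases apart. Their windows share 176 bases, so a CCAAT match and both GGGCGG matches are the same bases in the pair of windows. Relative to the first base of the gene, the Col1a2 window holds a TATAAA match at −170 and matches to CAGAC, on the other strand, at −156 and −23. The Col4a1 and Col4a2 windows hold no TATAAA. Over the members, GGGCGG, searched on both strands, was in 59.1% of the 44 windows against 33.1% of 33469 windows of all genes. CCAAT was in 31.8% against 37.5%, TATAAA in 11.4% against 14.2%, CAGAC in 50.0% against 50.1% and TGANTCA in 4.55% against 7.33%. GTCTAGAC, which is its own reverse complement, was in 0 of the 44 member windows and in 0.197% of all windows. None of these motifs contains another. These matches describe letters in the windows and say nothing about which factor is bound.

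Array medians lay at 5.09 to 5.17 in set 1 and at 6.05 to 6.18 in set 2, so every difference below was taken within a set. In set 2, 1 array differed from the rest: albumin replicate 2 had a median correlation of 0.981 with its set, where the other 8 had 0.992 to 0.996. Fbln2, Col6a3 and the 2 member calls for albumin against sham are given with and without it, and the other differences of set 2 include it. All 10 neuron markers passed the filter in each set. The samples are whole tissue, in which fewer cells of a type and less RNA per cell cannot be told apart.

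Type IV collagen stood highest on the albumin arrays of set 2. Col4a1 read 10.07, 9.81 and 9.71 with albumin, 7.21 and 7.93 in sham and 7.93, 8.33, 9.10 and 7.74 with albumin plus blockers. Every albumin array was above every other array, while the blocker and sham arrays overlapped. Col4a1 rose by 2.29 ± 0.39 (SE, adjusted p = 0.0450, limma), from 7.57 ± 0.51 (SD, n = 2) to 9.86 ± 0.18 (SD, n = 3), a 4.89-fold difference. A second probe set of Col4a1 differed by 2.06 in the same comparison. Col4a2, its partner chain, read 8.84, 8.43 and 8.59 with albumin, 7.31 and 7.39 in sham and 7.16, 7.76, 7.99 and 6.73 with the blockers. These albumin arrays again lay above all others, and the difference from sham was 1.27 ± 0.34 (SE), short of the threshold (adjusted p = 0.0956). Col4a5, which belongs to a less abundant type IV trimer, went the other way. It read 7.25, 6.57 and 7.47 with albumin, 8.24 and 8.52 in sham and 7.87, 7.87, 7.89 and 8.53 with the blockers. No albumin array reached a sham or blocker array, and the difference from sham was −1.28 ± 0.30 (SE, adjusted p = 0.0699, limma). Col4a4 and Col4a6 stayed below 4 on all arrays.

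Among the laminins, the chains that form the trimer of vessel walls differed unequally. Lama4, the α chain of laminin in vascular basement membranes, read 8.23, 8.32 and 8.25 with albumin, 7.53 and 7.70 in sham and 7.37, 7.82, 7.84 and 7.76 with the blockers. Lamc1, the γ chain of most laminins, read 9.77, 9.87 and 9.97 with albumin, 9.10 and 9.12 in sham and 9.14, 9.41, 9.58 and 8.93 with the blockers. In both genes the albumin arrays lay above the other 6. The differences from sham were 0.65 ± 0.15 (SE, adjusted p = 0.0723) for Lama4 and 0.76 ± 0.18 (SE, adjusted p = 0.0768) for Lamc1, both short of the threshold in limma. A second probe set of Lamc1 differed by 1.11. Lamb1, the β chain that joins them, read 8.14, 8.00 and 8.10 with albumin, 7.89 and 8.02 in sham and 8.07, 7.92, 8.22 and 7.95 with the blockers, so its groups overlapped. Lamb2, the β chain of mature vessels and synapses, read 7.19, 6.56 and 7.14 with albumin against 7.52 and 7.17 in sham and also overlapped. Lama1, Lama2, Lama3, Lama5 and Lamc3 stayed below 4 on all 19 arrays, with Lama5 at 2.46 to 2.69. Lamb3 was near 3 on most arrays of set 2 and at 7.07 on albumin replicate 2 alone, so it was not tested there.

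Nid1, which ties laminin to type IV collagen, did not move with them in set 2. It read 8.29, 7.75 and 8.30 with albumin, 7.97 and 8.11 in sham and 7.63, 8.51, 8.27 and 8.49 with the blockers, and all 3 groups overlapped. Nid2 was between 2.39 and 3.11 on all 9 arrays of set 2. Fn1, fibronectin, read 10.53, 10.81 and 10.84 with albumin, 10.24 and 9.74 in sham and 9.94, 10.09, 10.26 and 10.04 with the blockers. The albumin arrays of Fn1 lay above all others, with a difference from sham of 0.74 ± 0.18 (SE, adjusted p = 0.0747, limma).

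**Figure D1:**
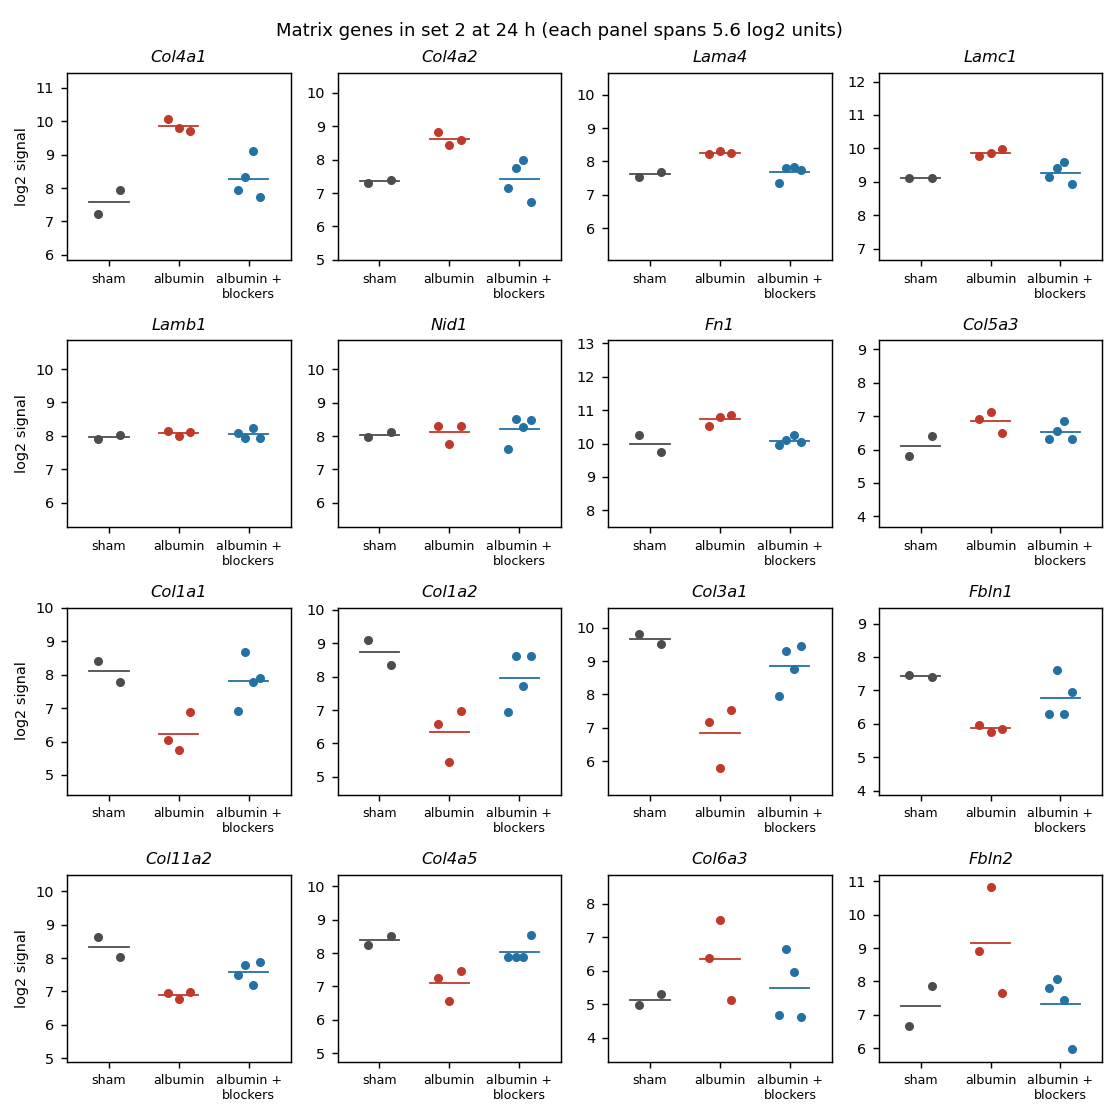
Log2 signal of 16 members on the 9 arrays of set 2 at 24 h, by group (sham, albumin, albumin plus blockers); each point is 1 array, each line a group mean, and every panel spans the same number of log2 units. Col4a1, Col4a2, Lama4, Lamc1 and Fn1 stand highest on the albumin arrays, Col3a1, Col11a2 and Col4a5 lowest, and Nid1 and Lamb1 overlap in all groups.

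The fibrillar collagens of connective tissue lay lower with albumin, by larger amounts and with a wider spread. Col3a1, the type III chain, read 7.18, 5.81 and 7.53 with albumin, 9.80 and 9.51 in sham and 7.95, 9.31, 8.75 and 9.45 with the blockers. Col1a2 read 6.59, 5.43 and 6.98 with albumin, 9.11 and 8.36 in sham and 6.95, 8.62, 7.71 and 8.61 with the blockers. Col1a1, the other type I chain, read 6.05, 5.75 and 6.89 with albumin, 8.41 and 7.78 in sham and 6.92, 8.68, 7.78 and 7.89 with the blockers. In all 3 genes each albumin array was below both shams. The differences from sham were −2.81 ± 0.57 (SE, adjusted p = 0.0569) for Col3a1, −2.40 ± 0.60 (SE, adjusted p = 0.0846) for Col1a2 and −1.87 ± 0.51 (SE, adjusted p = 0.0991) for Col1a1 in limma, none of which passed. Second probe sets differed by −2.56 for Col1a2 and −1.12 for Col1a1. Col5a2, a type V chain that is built into type I fibres, read 7.64, 7.35 and 7.67 with albumin against 7.82 and 8.04 in sham, a difference of −0.38 ± 0.15 (SE, adjusted p = 0.201). Col5a3, another type V chain, was higher instead, at 6.91, 7.13 and 6.50 against 5.80 and 6.42, a difference of 0.74 ± 0.26 (SE, adjusted p = 0.160).

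Col11a2, a chain of type XI collagen best known from cartilage, fell. It read 6.95, 6.77 and 6.97 with albumin, 8.63 and 8.04 in sham and 7.50, 7.80, 7.21 and 7.87 with the blockers, so that the groups were ordered albumin, blockers, sham with no overlap. Col11a2 fell by 1.44 ± 0.23 (SE, adjusted p = 0.0439, limma), 2.70-fold, from 8.33 ± 0.41 (SD, n = 2) to 6.90 ± 0.11 (SD, n = 3). Fbln1, fibulin-1, a protein of basement membranes and elastic fibres, read 5.97, 5.75 and 5.85 with albumin, 7.45 and 7.39 in sham and 6.28, 7.61, 6.28 and 6.94 with the blockers. Every albumin array of Fbln1 was below every other array, with a difference from sham of −1.56 ± 0.36 (SE, adjusted p = 0.0706, limma).

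Col6a3 and Fbln2, of the beaded filaments and of vessel and connective tissue matrix, were high on albumin replicate 2. Fbln2 read 8.92, 10.83 and 7.66 with albumin, 6.67 and 7.87 in sham and 7.79, 8.07, 7.44 and 5.96 with the blockers. Col6a3 read 6.38, 7.53 and 5.12 with albumin, 4.98 and 5.30 in sham and 4.67, 6.64, 5.97 and 4.63 with the blockers. Both genes overlapped between albumin and sham. Their differences were 1.86 ± 0.93 (SE, adjusted p = 0.285) for Fbln2 and 1.20 ± 0.78 (SE, adjusted p = 0.395) for Col6a3 in limma. Without that array they were 1.02 ± 0.76 (SE, adjusted p = 0.501) for Fbln2 and 0.61 ± 0.73 (SE, adjusted p = 0.691) for Col6a3. Col12a1, a collagen of fibre surfaces, and Col9a1 were likewise highest on that array, at 6.87 and 6.15. Col15a1, a multiplexin of the outer basement membrane zone, read 5.14, 5.17 and 5.50 with albumin against 4.38 and 5.16 in sham and overlapped. Col9a2, a chain of type IX collagen, read 5.28, 5.23 and 5.30 against 5.98 and 5.36, with a difference of −0.40 ± 0.17 (SE, adjusted p = 0.233). Col25a1, a transmembrane collagen of neurons, read 9.16, 9.74 and 9.80 with albumin, 9.84 and 10.20 in sham and 9.70, 9.56, 10.02 and 10.13 with the blockers.

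In all, 2 of the 30 members tested passed an adjusted p under 0.05 for albumin against sham, Col4a1 higher and Col11a2 lower, against 1.33% of the 10329 genes tested (0.958% higher and 0.368% lower). At an unadjusted p under 0.05 there were 15 of 30 members, against 21.4% of genes. Albumin arrays lay wholly above sham in 8 members and wholly below in 10, against 22.2% and 19.2% of genes. The median difference was −0.07 over the members tested and 0.02 over all genes, with 15 members above 0 and 15 below. By class, 3 of 9 fibrillar chains, 2 of 3 type IV chains and 2 of 5 FACIT chains (collagens on fibre surfaces) were above 0. Both calls rested on few arrays. They were lost without any 1 of the 3 albumin arrays (adjusted p from 0.0620 to 0.0652), of blocker replicates 1 and 2 (from 0.0727 to 0.0870), which enter through the shared spread, or of either sham (from 0.0724 to 0.312), and neither changed direction.

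**Figure D2:**
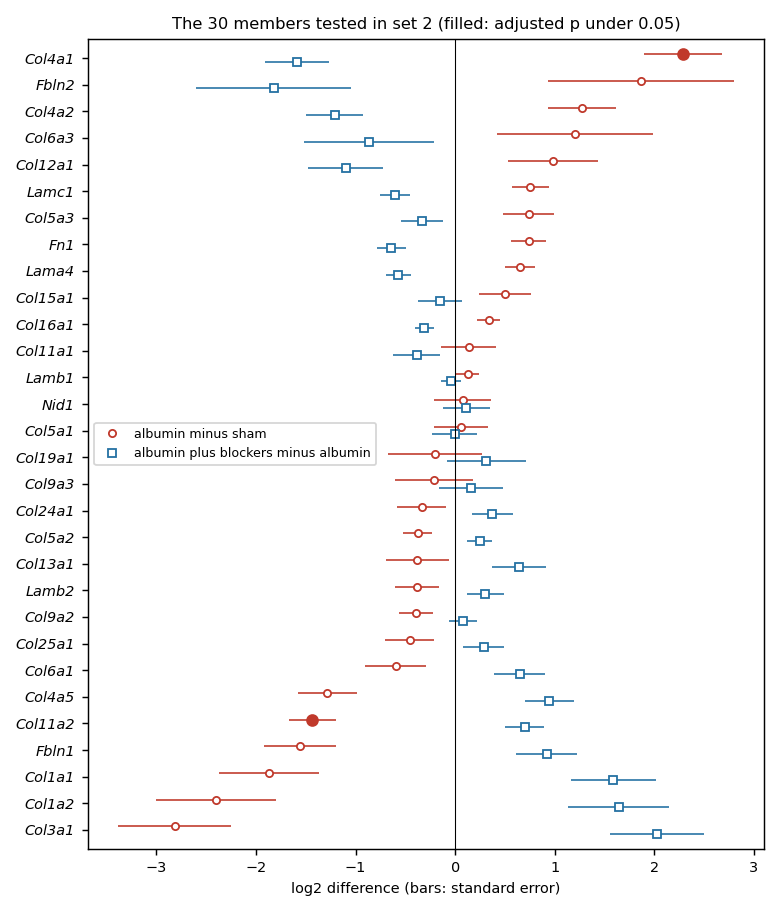
Log2 difference with its standard error for the 30 members tested in set 2, for albumin minus sham (circles) and albumin plus blockers minus albumin (squares), ordered by the first; filled symbols passed an adjusted p under 0.05. Col4a1 at 2.29 and Col11a2 at −1.44 are the filled symbols, and since both comparisons use the same 3 albumin arrays their opposite signs are not independent.

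Markers of other cells moved on the same arrays. Of 18 markers of meninges and fibroblasts, 14 were tested, with a median difference of −1.76 between albumin and sham. With albumin 4 were lower and none higher, against 0.368% and 0.958% of genes. The 4 were Ptgds, the meningeal prostaglandin D synthase, by −2.46, Coch by −4.14, Slc13a4 by −3.89 and Ogn by −5.39, with Slc13a4 below 4 on all 3 albumin arrays. The log2 of the summed signal of the list was 12.6 to 13.4 with albumin, 13.3 to 14.4 with the blockers and 14.5 to 15.001 in sham, the same order as Col1a1, Col1a2, Col3a1 and Fbln1. The pericyte and smooth muscle list (10 of 12 tested) went both ways, with 6 above 0 and 4 below and a median of 0.08. Tagln was higher by 3.50, and Vtn differed by −1.73 (adjusted p = 0.0956, limma). Its sum read 11.7 to 12.3 with albumin, 10.8 to 11.6 with the blockers and 10.5 to 10.6 in sham. In the microglia and macrophage list (9 of 10 tested) 2 were higher, Lgals3 and Gpnmb, against 0.958% of genes. In it 3 differences were below 0, among them P2ry12 at −2.38 (adjusted p = 0.0558, limma). The sum of that list read 12.7 to 13.6, 11.4 to 12.04 and 10.7 to 11.7 in the same order. The sum of the endothelial list read 12.9 to 13.2 with albumin, 12.98 to 13.2 with the blockers and 13.1 in both shams, with 0 of 13 tested markers passing in limma and 10 at an unadjusted p under 0.05, against 21.4% of genes. These markers went both ways, with 8 above 0 and 5 below, from −1.57 to 1.60. The part of these cells in the differences of the matrix genes was not tested.

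**Figure D3:**
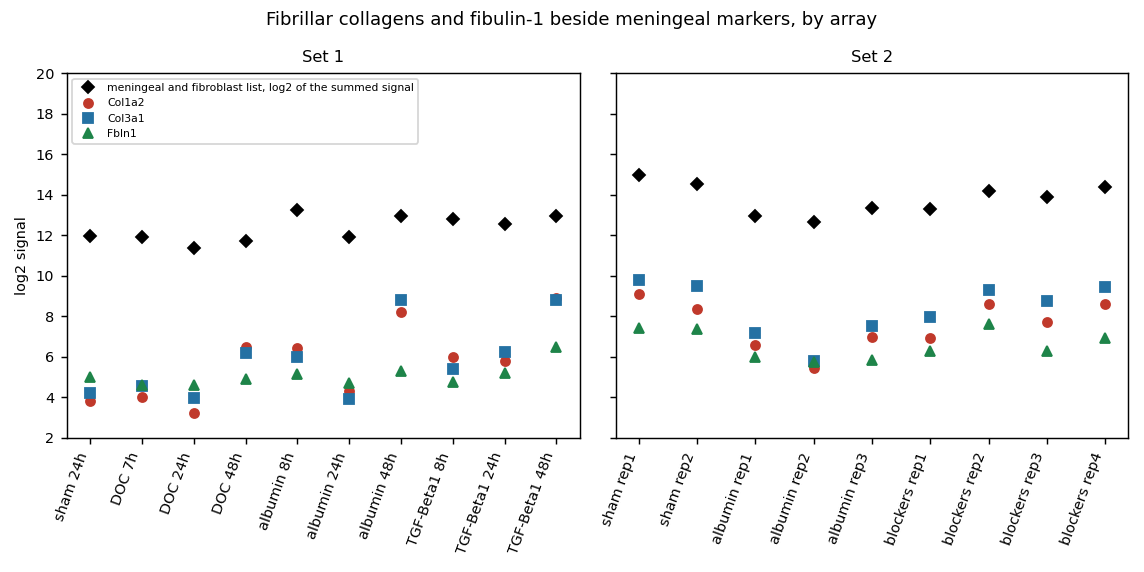
Log2 signal of Col1a2, Col3a1 and Fbln1 and the log2 of the summed signal of the meningeal and fibroblast markers (diamonds; 12 genes tested in set 1, 14 in set 2) on each array, set 1 left and set 2 right. In set 2 all 4 series are lower on the albumin arrays than in sham, and in set 1 the sum lies between 11.4 and 13.2.

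Adding the receptor blockers to albumin moved no member past the threshold. Of the 30 tested, 0 passed against albumin alone, as did 0.0194% of all genes, and 16 had an unadjusted p under 0.05 in limma, against 16.6% of genes. The smallest p was that of Col4a1, at −1.59 ± 0.33 (SE, adjusted p = 0.116), followed by Lama4 at −0.57 ± 0.13 (SE, adjusted p = 0.133) and Fn1 at −0.64 ± 0.15 (SE, adjusted p = 0.137). In the other direction Col3a1 differed by 2.03 ± 0.47 (SE, adjusted p = 0.142), Col4a5 by 0.94 ± 0.25 (SE, adjusted p = 0.171) and Col1a1 by 1.59 ± 0.42 (SE, adjusted p = 0.174). Col4a2 differed by −1.21, Lamc1 by −0.60, Col11a2 by 0.70, Col1a2 by 1.64 and Fbln1 by 0.92. Blocker arrays lay wholly above albumin in 6 members, against 7.32% of genes, and wholly below in 7, against 8.71%. Each of these 13 genes shared its albumin arrays with the comparison against sham, so the values stand side by side and are no independent evidence of a return. The median difference was 0.10 over the members tested and 0.00 over all genes tested.

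Against sham, the cortex given albumin with blockers had 0 of 30 members past the threshold, as did 0% of the 10329 genes. At an unadjusted p under 0.05 in limma there was 1 member, against 4.3% of genes. This was Col11a2, at −0.74 ± 0.22 (SE, adjusted p = 0.9999). Col4a1 differed by 0.70 ± 0.37 (SE), and its blocker replicate 3, at 9.10, was the only blocker array more than 1 above the mean of the shams. Col3a1 stayed below both shams on all 4 blocker arrays, with a difference of −0.79 ± 0.54 (SE). With 2 sham arrays, a p that misses the threshold does not show that the groups were alike.

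In set 1, the probe sets used for fibronectin and nidogen-1 were higher than in the sham on every treated array. Fn1 read 6.39 in the sham, 8.77, 8.91 and 9.22 with DOC at 7, 24 and 48 h, 8.01, 8.54 and 10.00 with albumin and 8.38, 8.02 and 9.18 with TGF-β1 at 8, 24 and 48 h. Nid1 read 6.25 in the sham, 7.40, 7.68 and 8.09 with DOC, 7.63, 7.46 and 8.33 with albumin and 7.56, 7.87 and 8.28 with TGF-β1. The lowest of the 9 differences was 1.61 for Fn1 and 1.15 for Nid1, and these were the only 2 of 32 members at least 2-fold above the sham on all 9 arrays, against 0.449% of genes. Over its 3 times, Nid1 was higher by 1.47 ± 0.20 (SE, adjusted p = 0.0458) with DOC and by 1.55 ± 0.20 (SE, adjusted p = 0.0385) with albumin in limma, and by 1.65 ± 0.20 (SE, adjusted p = 0.0955) with TGF-β1, which did not pass. A second probe set of Nid1, at 3.94 to 4.65 in set 1 and near 2.4 in set 2, went the other way. It was below the sham on all 9 treated arrays, and differed by −0.52 with DOC, −0.41 with albumin and −0.28 with TGF-β1. Fn1 was higher by 2.58 ± 0.42 (SE, adjusted p = 0.0596) with DOC, 2.46 ± 0.42 (SE, adjusted p = 0.0751) with albumin and 2.13 ± 0.42 (SE, adjusted p = 0.183) with TGF-β1, none past the threshold. Each of these values rests on the same sham array, whose own spread is unknown.

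Col6a3, the longest chain of type VI collagen, rose with time on the probe set used, in the same order under each agent. It read 2.50 in the sham, 2.96, 4.49 and 5.50 with DOC, 3.86, 5.05 and 6.48 with albumin and 2.59, 4.56 and 5.62 with TGF-β1. The sham and all 3 early arrays were below 4, the low end of the scale, so the gene entered the test through its 24 h and 48 h arrays. A second probe set of Col6a3 stayed at 2.29 to 2.34 on all arrays of set 1. With the mean of its probe sets Col6a3 passed in no contrast there. Over the 3 times Col6a3 was higher than in the sham by 1.82 ± 0.24 (SE, adjusted p = 0.0458) with DOC and 2.63 ± 0.24 (SE, adjusted p = 0.0178) with albumin in limma. With TGF-β1 the difference was 1.76 ± 0.24 (SE, adjusted p = 0.105). With no filter on low signals the adjusted p was 0.0608 with DOC and 0.0426 with albumin, and a filter on a mean above 5 left the gene untested. Among the 9 treated arrays it rose by 1.56 ± 0.17 (SE, adjusted p = 0.0240) from the early time to 24 h and by 1.16 ± 0.17 (SE, adjusted p = 0.0269) from 24 h to 48 h. Without the filter these had an adjusted p of 0.0810 and 0.0839, and the difference between 48 h and the early time passed at 0.00920 (limma). Its partner Col6a1 followed no common course, at 6.36, 8.13 and 5.32 with DOC, 7.06, 7.19 and 7.22 with albumin and 6.61, 7.86 and 7.12 with TGF-β1 against 7.24 in the sham.

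Fbln2, fibulin-2, had nearly the same course under each agent. It read 6.20 in the sham, 5.69, 7.94 and 8.78 with DOC, 5.95, 7.62 and 8.65 with albumin and 5.81, 8.03 and 8.74 with TGF-β1. The early arrays were all below the sham and the later ones all above it. Fbln2 rose by 2.05 ± 0.15 (SE, adjusted p = 0.0126, limma) from the early time to 24 h, 4.14-fold, and by a further 0.86 ± 0.15 (SE, adjusted p = 0.0475) to 48 h. Lama4 had a like step over the first day. It read 6.38 in the sham, 5.29, 6.51 and 6.17 with DOC, 5.64, 6.74 and 7.06 with albumin and 5.70, 6.60 and 6.52 with TGF-β1. All early arrays of Lama4 were below the sham, and it rose by 1.08 ± 0.16 (SE, adjusted p = 0.0429, limma) from the early time to 24 h.

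Col4a1 and Col4a2 stood highest at 24 h with DOC and with albumin, while Col4a5 stood lowest there. Col4a1 read 6.16 in the sham, 7.57, 8.68 and 7.69 with DOC, 7.13, 8.69 and 7.45 with albumin and 6.95, 6.89 and 7.41 with TGF-β1. Col4a2 read 4.90 in the sham, 5.41, 6.43 and 5.06 with DOC, 5.03, 6.82 and 5.02 with albumin and 3.99, 5.22 and 5.18 with TGF-β1. Col4a5 read 7.61 in the sham, 7.64, 6.99 and 8.57 with DOC, 7.68, 6.78 and 8.25 with albumin and 7.88, 7.85 and 8.28 with TGF-β1. Under DOC and albumin the arrays low in Col4a5 were thus those high in Col4a1 and Col4a2. On the TGF-β1 arrays the second probe set of Col4a1 read 6.46, 7.04 and 7.82, a wider range than the one used. Col4a1 was above the sham on all 9 arrays, by 0.73 to 2.53. Lamc1 was also above it on all 9, at 7.48, 8.34 and 7.68 with DOC, 7.91, 8.29 and 7.97 with albumin and 7.57, 7.65 and 7.94 with TGF-β1 against 7.33. The second probe set of Lamc1 was just below the sham, at 3.46, with DOC at 48 h (3.41) and TGF-β1 at 24 h (3.43). No time or sham contrast of Col4a1, Col4a2, Col4a5 or Lamc1 passed the threshold, with Col4a1 at 1.81 ± 0.48 (SE, adjusted p = 0.132, limma) for DOC and Col4a2 at 1.35 ± 0.34 (SE, adjusted p = 0.166) for 24 h against the early time. Lamb1 read 8.01 in the sham, 8.004, 8.88 and 8.05 with DOC, 8.30, 8.10 and 8.26 with albumin and 7.82, 8.09 and 8.26 with TGF-β1, and Lamb2 lay between 5.21 and 6.53. With 1 array per agent and time, the shape under a single agent has no replicate check.

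Among the 8 fibrillar chains tested in set 1, Col1a2 passed for 48 h against 24 h, and Col1a1, Col1a2, Col3a1 and Col5a2 for 48 h against the early time. Col1a2 read 3.80 in the sham, 4.03, 3.22 and 6.49 with DOC, 6.42, 4.30 and 8.21 with albumin and 6.003, 5.78 and 8.90 with TGF-β1. Col3a1 read 4.21 in the sham, 4.57, 3.95 and 6.20 with DOC, 5.98, 3.93 and 8.79 with albumin and 5.38, 6.23 and 8.82 with TGF-β1. Under every agent the 48 h array of both genes was the highest, and with DOC and albumin the 24 h array was the lowest. From 24 h to 48 h Col1a2 rose by 3.43 ± 0.32 (SE, adjusted p = 0.00623, limma), 10.8-fold, and Col3a1 differed by 3.23 ± 0.57 (SE, adjusted p = 0.0523). A second probe set of Col1a2 differed by 3.47 between 48 h and the early time, against 2.38 for the one used. Col5a2 read 6.43 in the sham, 6.58, 6.76 and 7.62 with DOC, 6.86, 6.89 and 8.69 with albumin and 6.66, 7.53 and 8.57 with TGF-β1. Col1a1 read 3.67 in the sham, 2.78, 3.73 and 4.03 with DOC, 3.69, 3.61 and 5.19 with albumin and 3.72, 3.70 and 5.44 with TGF-β1. It was above 4 on the 48 h arrays alone and so entered the test only through the group where it was high, and without the filter its difference between 48 h and the early time did not pass (adjusted p = 0.0888, limma). Col5a1, Col5a3, Col11a1 and Col11a2 did not pass in any contrast of set 1, and Col11a2 was lower at 48 h. Fbln1 was likewise highest at 48 h with TGF-β1, at 6.47, and differed from the sham by −0.39 to 0.31 on the other 8.

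The summed meningeal and fibroblast list of set 1 read 11.98 in the sham, 11.9, 11.4 and 11.7 with DOC, 13.2, 11.9 and 12.97 with albumin and 12.8, 12.6 and 12.95 with TGF-β1. Its 24 h array was the lowest of each agent, as for Col1a2. Between 48 h and the early time, 2 of its 12 tested genes were higher, Igfbp2 by 2.56 and Lum, a proteoglycan that coats collagen fibres, by 2.43. In that contrast, where 3.91% of all genes were higher and 1.18% lower, the endothelial list had 6 of 13 higher, the microglia and macrophage list 8 of 10 and the pericyte list 2 of 6 (Rgs5 and Abcc9), with none of these lower. Tie1, Cd68 and Itgam among them were above 4 at 48 h alone. Of 9 astrocyte markers, Gfap was higher by 2.19 and Gjb6 lower by −1.72, and both red cell markers tested were lower. The choroid plexus list had only Ttr above the filter. Their part in the rise of the matrix genes was not tested.

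Col25a1 and Col11a2 were below the sham on all 9 treated arrays. Col25a1, the transmembrane collagen also known as a precursor of a plaque protein in brain, read 9.61 in the sham, 9.07, 9.14 and 7.35 with DOC, 9.28, 9.11 and 8.32 with albumin and 9.53, 9.40 and 8.12 with TGF-β1. It fell by 1.29 ± 0.19 (SE, adjusted p = 0.0308, limma) from 24 h to 48 h. Col11a2 read 6.51 in the sham, 5.68, 5.25 and 4.06 with DOC, 5.82, 5.07 and 4.58 with albumin and 6.16, 5.57 and 5.92 with TGF-β1. Its difference between 48 h and the early time was −1.03 ± 0.29 (SE, adjusted p = 0.0973, limma), short of the threshold.

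**Figure D4:**
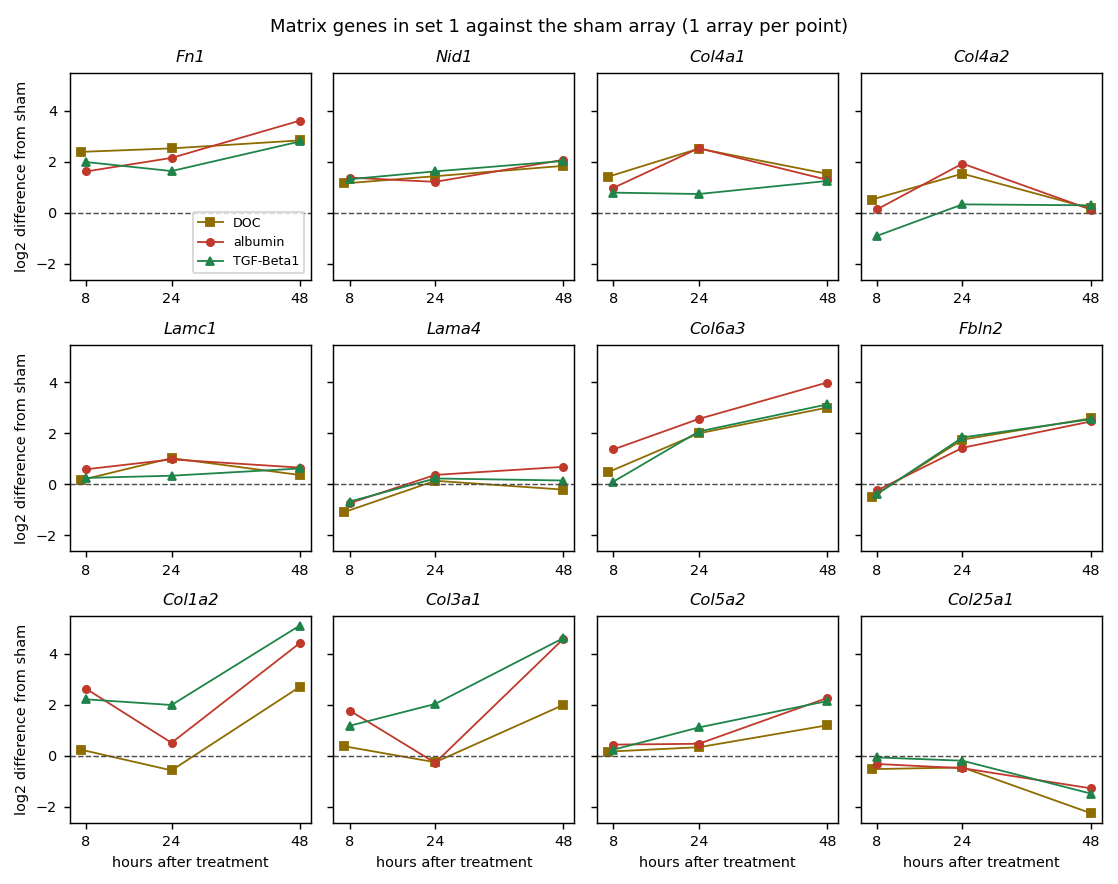
Log2 difference from the single sham array of set 1 (dashed line at 0) for 12 members at 7 or 8, 24 and 48 h with DOC (squares), albumin (circles) and TGF-β1 (triangles); each point is 1 array. Fn1 and Nid1 lie above the sham throughout, Fbln2 runs from below the sham at the early time to about 2.5 above it at 48 h under each agent, and Col1a2 and Col3a1 are highest at 48 h.

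Against the sham, 2 of the 32 members tested passed with DOC (Col6a3 and Nid1, against 0.469% of genes) and the same 2 with albumin (against 0.369%). With TGF-β1, 0 of 32 passed in limma, as did 0% of genes, and 8 had an unadjusted p under 0.05, against 7.49% of genes. The sham array is shared, so the recurrence of Col6a3 and Nid1 is no second line of evidence. Without any 1 of the 3 times both calls with DOC were lost (adjusted p from 0.0677 to 0.127), as was Nid1 with albumin (from 0.0722 to 0.155). Col6a3 with albumin was lost without the 24 h or the 48 h arrays (0.0583 and 0.120). At least 2-fold above the sham at all 3 times were Fn1, Nid1 and Col4a1 with DOC (3 members, against 1.06% of genes), Fn1, Nid1 and Col6a3 with albumin (3, against 1.66%) and Fn1, Nid1, Col1a2 and Col3a1 with TGF-β1 (4, against 0.988%). These counts hold for the probe sets used. The second probe set of Col1a2 read 3.20, 3.27 and 7.61 with TGF-β1 at 8, 24 and 48 h against 3.19 in the sham. On it, Col1a2 stood 2-fold above the sham at 48 h alone. That of Col4a1 read 7.01 with DOC at 7 h against 6.37 in the sham, less than 2-fold above it. Over the 9 treated arrays, 8 of 32 members were above the sham on all, against 11.2% of genes, and 3 below on all, against 12.2%. No member passed between agents in limma. At an unadjusted p under 0.05 there were 7 for albumin against DOC, 9 for TGF-β1 against DOC and 4 for TGF-β1 against albumin, against 7.48%, 20.8% and 8.75% of genes, and 0.00998%, 0.0299% and 0% of genes passed the adjusted threshold in that order.

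Between times, 3 of 32 members passed for 24 h against the early time (Fbln2, Col6a3 and Lama4, all higher, against 0.799% of genes, 0.499% higher and 0.299% lower). For 48 h against 24 h, 4 passed (Col1a2, Col6a3 and Fbln2 higher and Col25a1 lower, against 1.41%, 1.3% higher and 0.11% lower). For 48 h against the early time, 9 passed, 8 higher and 1 lower, against 5.09% of genes (3.91% higher and 1.18% lower). The 8 were Fbln2 at 2.91 ± 0.15 (SE), Col6a3 at 2.73 ± 0.17, Col3a1 at 2.63 ± 0.57, Col1a2 at 2.38 ± 0.32, Col5a2 at 1.59 ± 0.23, Col1a1 at 1.49 ± 0.27, Lama4 at 1.04 ± 0.16 and Nid1 at 0.70 ± 0.14, and Col25a1 was lower at −1.37 ± 0.19. They hold 4 of 8 fibrillar chains tested and none of 3 type IV chains, and Col1a1 and Col6a3 were below 4 on every early array. Without the filter Col6a3, Col25a1, Fbln2 and Lama4 passed. Col15a1 at 1.07 ± 0.24 (SE, adjusted p = 0.0522, limma) and Fn1 at 1.08 ± 0.30 (SE, adjusted p = 0.0923) fell short. The median over the members tested was 0.32, against 0.01 over all genes. Without DOC 5 of the calls were made, without albumin 4 and without TGF-β1 none, each time from 6 arrays. The 3 agents served here as the replicates of a time. Set 1 has no sham at the early time or at 48 h, so effects of the agents cannot be told apart from time since the operation.

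**Figure D5:**
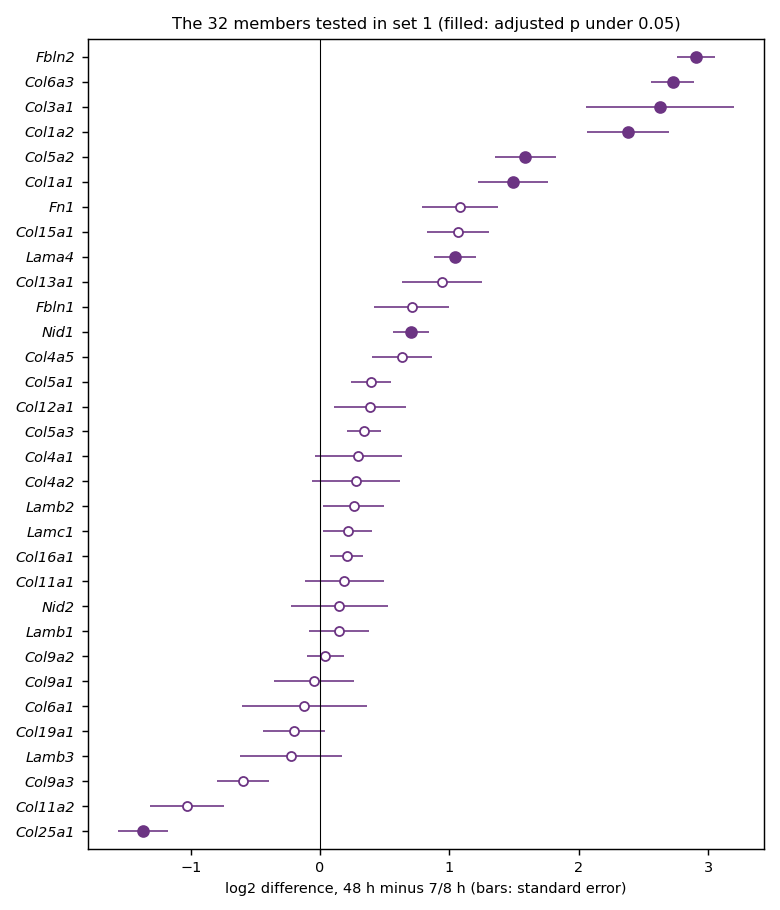
Log2 difference with its standard error between 48 h and the early time (7 or 8 h) over the 3 agents for the 32 members tested in set 1; filled circles passed an adjusted p under 0.05. The 8 filled circles to the right of 0 run from 0.70 (Nid1) to 2.91 (Fbln2), and Col25a1 at −1.37 is the filled circle to the left.

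Enzymes that process collagen followed the late rise in part. Of 31 genes for collagen folding, modification and crosslinking, 19 were tested in set 1, and 4 were higher at 48 h than at the early time, with none lower, against 3.91% of all genes higher. They were Serpinh1, the collagen chaperone of the endoplasmic reticulum, by 2.30, the crosslinking enzyme Loxl1 by 1.92 and the lysyl hydroxylases Plod1 by 0.73 and Plod3 by 0.76. In set 2, 20 were tested and 0 passed for albumin against sham in limma, against 1.33% of genes. At an unadjusted p under 0.05 there were 3, against 21.4% of genes. Loxl1 had the smallest p there, at −1.17 ± 0.27 (SE, adjusted p = 0.0702). Of 28 matrix receptors, 16 were tested in set 2. Itgb4, a laminin receptor β chain, was above 4 on the 2 shams alone (4.71 and 4.46, against 3.77 to 3.83 with albumin), so its call for albumin against sham, at −0.78, comes from a gene tested only through the group where it was high. Cd44 differed by 4.76 ± 1.08 (SE, adjusted p = 0.0675, limma). In set 1, 2 of 14 were higher at 48 h than early, against the same 3.91%, Itga6, a laminin receptor α chain, by 1.01 and Cd44, a receptor of hyaluronan, by 2.08. Of 25 other basement membrane and elastic fibre genes, 12 were tested in set 2. Vwa1, a protein of basement membranes near perlecan, was higher with albumin by 0.83, where 0.958% of all genes were higher. Of 11 tested in set 1, Efemp1, a fibulin relative, was higher at 48 h than early by 1.24, against the same 3.91%.

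The remaining members gave little signal. The 24 members tested in neither set include Col18a1, the endostatin precursor, which read 2.56 to 3.81, and Fbln5, an organiser of elastic fibres, which read 2.02 to 2.12 over the 19 arrays. The network collagens were above 4 on single arrays only, Col8a1 at 4.44 in sham replicate 1 of set 2 and again at 4.44 with TGF-β1 at 48 h, and Col8a2 at 5.83 in sham replicate 1. Nid2 was tested in set 1 alone, at 4.60 in the sham and between 3.87 and 5.82 on the treated arrays, with no contrast past the threshold. A low signal here may be that of a poor probe set, and absence of the transcript was not shown.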

How the data were processed

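RNA of rat somatosensory cortex was measured on 19 Affymetrix arrays, 10 in set 1 and 9 in set 2. The deposited values are log2 signals per probe set, made by the authors with GCRMA, per the submitters' processing notes, which name no version. The method corrects background, normalises by quantiles and summarises probes. It can compress low signals, and whether differences near the low end are understated or overstated was not tested. The sets have different medians and were not compared directly. Of 31099 probe sets, 20826 name 1 gene in the platform annotation, 436 several and 9780 none, and 57 are controls; 20758 symbols were updated by Entrez identifier. For each of 14217 genes the brightest probe set on average was used.

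Differences were tested in R 4.3.3 with limma 3.58.1 (linear models with eBayes, two-sided, Benjamini-Hochberg adjustment over the 10018 genes tested in set 1 or the 10329 in set 2). Set 2 was fitted with its 3 groups. Set 1 was fitted as agent plus time, with 7 h and 8 h as the early time, with the lone sham taken to vary as the treated arrays do. Between times the 3 agents served as the replicates of a time. The p-values of set 1 thus weigh a difference against disagreement between agents over time, not against the spread between animals treated alike. SE is the moderated standard error and SD the spread between arrays. Checked on simulated data for albumin against sham in set 2 (10329 genes), 34 of 50 genes changed by 1 on the log2 scale and 46 of 50 changed by 2 were called. For albumin against sham in set 1 these were 24 and 44 of 50, and for 48 h against the early time 32 and 48 of 50. The changed genes were drawn at random and the noise was normal and independent, so these rates need not hold for the members. Precision is limited by the number of arrays.

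The members, the gene lists and the markers were chosen with earlier results of these data known. Members named with their values were those past the threshold in any comparison, the 4 with the smallest p per direction in each comparison of set 2, those 2-fold from the sham at all 3 times of an agent, and 17 members of general interest, on every array where the results turn on them; the comparison between agents and the second probe sets were added after seeing the data. Alternatives were other filters, normalisation, variance prior, probe set choice, samples in the fit, a replicate block and left-out arrays. No protein sequences were used here. Tables were made with pandas 2.3.3 and numpy 2.4.6, and plots with matplotlib 3.10.9, under Python 3.11.15.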

Additional observations from a re-analysis of the deposited data

Results flagged for a closer look

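Albumin minus sham had opposite signs in the 2 sets for Col1a2, at −2.40 in set 2 (24 h, 3 arrays against 2) and 2.51 in set 1 (8, 24 and 48 h against 1 sham), and for Col5a2, at −0.38 and 1.05. On the probe sets used, every albumin array lay below its shams in set 2 and above its sham in set 1. At 24 h, the time shared by the sets, the set 1 difference was 0.50 for Col1a2 and 0.46 for Col5a2. On the second probe set of Col1a2, albumin at 24 h in set 1 read 2.95, below the sham at 3.19. The times differ and the difference between the sets was not tested. The log2 of the summed meningeal and fibroblast markers of set 2 was 14.5 to 15.001 in sham, above albumin at 12.6 to 13.4. That of the set 1 sham, 11.98, was below albumin at 8 and 48 h (13.2 and 12.97) and just above it at 24 h (11.93).

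Blocker replicate 4 stood above the other 3 blocker arrays for Col4a5 and for Col9a2, with a gap of 0.980 and of 0.960 of the group's range. The 4 arrays read 7.87, 7.87, 7.89 and 8.53 for Col4a5 and 5.30, 5.30, 5.31 and 5.50 for Col9a2. The gap is a large part of the range because the other 3 arrays nearly coincide, and for Col9a2 the step itself is small. The 2 genes came from 21 groups of 4 examined, and chance alone gives about 1 in 20.

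Fbln2 and Lama4 lay below the set 1 sham on all 3 early arrays and above it on all 3 arrays at 24 h, with rises of 2.05 and 1.08, and Fbln2 also at 48 h, 2.91 above the early time. These time contrasts passed the test, while the early and later positions against the sham rest on 1 sham array.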

How the results depend on the processing

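Counts of members past the threshold were small and moved easily. For albumin against sham in set 2, 2 members became 0 without the filter, 0 with only the arrays of the 2 groups and 0 to 2 with 1 array left out. The replicate block gave 0 members (53 genes instead of 137), and 7 of the 9 related and marker genes past the threshold in that comparison were lost under it, all but Lgals3 and Gpnmb. Without the filter 8 of these 9 were lost, Lgals3, Gpnmb and the meningeal genes among them. Only Itgb4, tested only through its high group, was kept. For blockers against albumin the replicate block gave 0 genes instead of 2 and for blockers against sham 1 instead of 0, with 0 members in each. Same-numbered arrays correlated by −0.14 to 0.22 in their deviations from the group means, and differently numbered ones by −0.26 to 0.26. Between albumin and blocker arrays, same-numbered pairs read 0.22, 0.22 and 0.05, and the others −0.26 to 0.18. The deviations of the 2 shams mirror each other, so their correlations cannot decide. Whether the numbers mark a pairing is thus not settled. In set 1, DOC against sham went from 2 to 1 without the filter, 1 with a mean above 5, 0 with quantile normalisation, 0 with the mean of all probe sets, 8 with the shams of set 2 added (6 of them lower, and neither Col6a3 nor Nid1 among them) and 0 with a time left out. Albumin went from 2 to 1, 1 and 0 under no filter, the mean filter and all probe sets, and 0 to 1 with a time left out, and with the shams of set 2 added 3 others passed in place of both. With a trend and robust prior the 2 with DOC were Fn1 and Nid1. Without the filter 24 h against early went from 3 to 0, 48 h against 24 h from 4 to 1 and 48 h against early from 9 to 4. With all probe sets the first went to 1 and the last to 5, and with a mean above 5 the second went to 2. Leaving out an agent gave 0, 0 to 1 and 0 to 5. The averages over probe sets include silent ones, and no filter means more genes tested; other causes were not tested.

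No named member past the threshold turned sign under any alternative run. With the shams of set 2 added, albumin minus sham in set 1 became −0.78 for Col1a2, −1.61 for Col3a1 and −0.46 for Lamc1, and TGF-β1 minus sham became −0.20 for Col1a2, −1.03 for Col3a1, −0.0007 for Col6a3 and −0.26 for Fn1. That fit sets arrays of different scale against each other. Among named members not past the threshold, 73 sign turns occurred over all alternatives, 26 of them in differences over 1 SE. Limits are the lone sham of set 1, the 2 shams of set 2, and signals near the low end of the scale.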
